A study of Mus musculus with 21 samples.

Results

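miR-218 is a microRNA (miRNA) made from 2 genes, Mir218-1 in an intron of Slit2 and Mir218-2 in an intron of Slit3. Its members are the 3 mature entries mmu-miR-218-5p, mmu-miR-218-1-3p and mmu-miR-218-2-3p (mmu for mouse), of 1556 mature miRNAs in the deposited table. The members were chosen by their measured levels over the cell types, miR-218-5p standing high in Leydig cells, so these levels are a description and carry no test. Small RNA was sequenced from 7 types of untreated primary mouse cells of the C57BL/6J strain, kept at 37 °C in DMEM/F12 to which 10% serum was added. Of these, 4 were testicular: Leydig cells, the steroid-producing cells between the tubules, peritubular myoid (PTM) cells, the contractile cells of the tubule wall, Sertoli cells, which nurse the germ cells, and germ cells. The other 3 were smooth muscle types, from vessels (VSMC), intestine (ISMC) and trachea (TSMC). Per the labels, the smooth muscle cells came from a supplier and the testicular cells were isolated by earlier methods, so cell type and source cannot be told apart between these sets. Each type had 3 libraries, 21 in all. Nothing in the labels ties the libraries to single animals or cultures, so p-values measure only the spread between these samples, which may be technical.

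A miRNA gene is transcribed as a hairpin, whose 2 arms are cut out as the 5p and 3p mature forms. Usually 1 arm is loaded into Argonaute as the guide, and its bases 2 to 8, the seed, pair with target mRNAs. Slit2 and Slit3 encode secreted ligands of the Robo receptors in axon and vessel guidance, and miR-218 is known to repress Robo1 and Robo2, to mark motor neurons and to act in bone-forming mesenchyme. Neither the Slit and Robo mRNAs nor any target was measured.

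The sequences show why the 5p arm cannot tell the genes apart and the 3p arms can. They are from RefSeq (GRCm38.p6), with the seed in capitals.
mmu-miR-218-5p: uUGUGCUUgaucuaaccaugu
mmu-miR-218-1-3p: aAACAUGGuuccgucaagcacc
mmu-miR-218-2-3p: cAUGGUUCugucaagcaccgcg
All 3 members were found in RefSeq. miR-218-5p is 21 bases long and is encoded identically by both genes (chr5:48223966-48223986 and chr11:35616840-35616860), so its count is the sum over both. The 3p arms are 22 bases long each and overlap over 19 bases with 1 difference, C12U, counted from the first base of miR-218-1-3p. miR-218-1-3p starts 3 bases earlier, so the seeds of the 3p arms differ. How many mismatches were allowed when tags were matched is not known here, so part of the reads of one 3p arm could have been counted as the other. miR-7002-3p also carries the seed of miR-218-5p, and it held 0 to 4 counts per library.

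The hairpins from which the arms are cut are shown with the mature arms in capitals.
Mir218-1: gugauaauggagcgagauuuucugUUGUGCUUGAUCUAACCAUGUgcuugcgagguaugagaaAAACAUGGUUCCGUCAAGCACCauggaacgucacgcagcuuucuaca
Mir218-2: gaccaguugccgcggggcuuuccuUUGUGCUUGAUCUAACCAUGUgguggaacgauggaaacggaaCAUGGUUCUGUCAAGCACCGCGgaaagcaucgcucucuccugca
Both hairpins are 110 bases long, and G and C make up 45.5% of Mir218-1 and 54.5% of Mir218-2. Mir218-1 lies on chr5:48223942-48224051 and Mir218-2 on chr11:35616816-35616925, each on the plus strand (GRCm38), as do their host genes. In the GENCODE vM21 annotation each lies in intron 14 of 35 of the longest coding transcript of its host, Slit2-208 and Slit3-201. The intron is 4572 bases long in Slit2 and 9571 bases long in Slit3.

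Libraries held 18.1 to 26.1 M tags of all classes (1 M is 1000000). Mature miRNAs took 4.04 to 14.6 M tags in the 18 libraries other than germ cells and 0.525 to 0.958 M in germ cells, 2.02% to 3.80% of their tags. Levels are counts scaled to 1000000 mature miRNA tags (CPM), the unit that chose the members, and are set beside counts scaled to 1000000 tags of all classes (all-tag CPM) where this changes an order. Of the miRNA markers of the types, the germ cell miRNAs of the miR-34 and miR-449 families summed to 257802 to 330228 CPM in germ cells and 199 to 1273 CPM elsewhere. Gonadal miR-202 took 152 to 1215 CPM in the testicular types and 0.176 to 1.78 CPM in smooth muscle cells. The contractile miRNAs of miR-143 and miR-145 were not higher in the smooth muscle types than in PTM or Sertoli cells. They took 4521 to 20406 CPM in smooth muscle cells, 19631 to 23896 CPM in PTM cells and 29441 to 45790 CPM in Sertoli cells. Leydig cells (3980 to 5875 CPM) and germ cells (630 to 4580 CPM) lay below vascular and tracheal cells (at least 14794 CPM). Both overlapped with intestinal cells (4521 to 14068 CPM). Leydig cells have no miRNA marker of their own among the lists used.

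miR-218-5p was highest in Leydig cells. Its 3 Leydig libraries held 306, 550 and 188 CPM (3806, 5271 and 2330 counts), with a mean of 348 ± 185 CPM (SD, n = 3). All 3 lay above each of the 18 other libraries, which ranged from 29.3 CPM in a PTM library to 101 CPM in a germ cell library. Of the 846 miRNAs tested, 23 (2.72%) had all Leydig libraries on top, and 30 (3.55%) by all-tag CPM. Against single types the share of such miRNAs was 16.7% for PTM, 22.1% for Sertoli, 38.9% for germ, 20.8% for vascular, 20.7% for intestinal and 20.2% for tracheal cells. Nothing is read from the place of the members in these shares, since they were chosen on it. Within a Leydig library miR-218-5p was between the 88th and the 118th most abundant of the tested miRNAs, and in the other types its rank was 158 to 299.

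Tracheal smooth muscle cells came next in miR-218-5p, at 73.3, 64.8 and 97.7 CPM (mean 78.6 ± 17.1 CPM, n = 3). The lowest Leydig library stood 1.92 times above the highest tracheal one. Germ cells had 41.9, 31.3 and 101 CPM, a mean of 58.2 ± 37.7 CPM that rested on only 22, 30 and 78 counts. Vascular cells had 55.9, 51.2 and 65.1 CPM and intestinal cells 44.8, 60.5 and 47.3 CPM (means 57.4 ± 7.08 and 50.9 ± 8.44 CPM). Neighbours in the order from tracheal to intestinal cells overlapped, and each step was smaller than the spread of the libraries. The tracheal range lay above the intestinal one, but the share of all miRNAs with this separation was not counted.

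Sertoli and PTM cells were lowest in miR-218-5p on this scale. Sertoli libraries held 57.5, 37.0 and 47.0 CPM (mean 47.2 ± 10.3 CPM) and PTM libraries 47.6, 41.4 and 29.3 CPM (mean 39.4 ± 9.34 CPM). The ranges of both overlapped with each other, and that of Sertoli cells also with intestinal cells, so these neighbours did not differ beyond their spread. The mean of Leydig cells was 8.82 times that of PTM cells, 7.37 times that of Sertoli cells and 4.42 times that of tracheal cells, its nearest neighbour.

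By all-tag CPM the order kept Leydig cells first and moved germ cells from the third place to the last. Leydig cells then held 168 ± 66.7 all-tag CPM of miR-218-5p, vascular cells 33.5 ± 2.40, tracheal cells 29.3 ± 4.96, intestinal cells 22.0 ± 4.82, Sertoli cells 18.2 ± 7.11, PTM cells 15.3 ± 5.72 and germ cells 1.68 ± 1.15 (SD, n = 3 each). On this scale the germ cell libraries, at 0.848, 1.19 and 2.99, lay below every other library. How many of all miRNAs had germ cells placed in this way was not counted, so nothing particular to miR-218 is read from it. The lowest PTM library was at 8.74. All-tag CPM is by definition the CPM of mature tags times the mature share of the library. The shift of germ cells between the scales thus follows from the mature shares. Which scale is nearer to the level per cell was not tested. In cells taken in bulk a smaller part of cells with the miRNA and less of it per cell cannot be told apart.

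**Figure D1:**
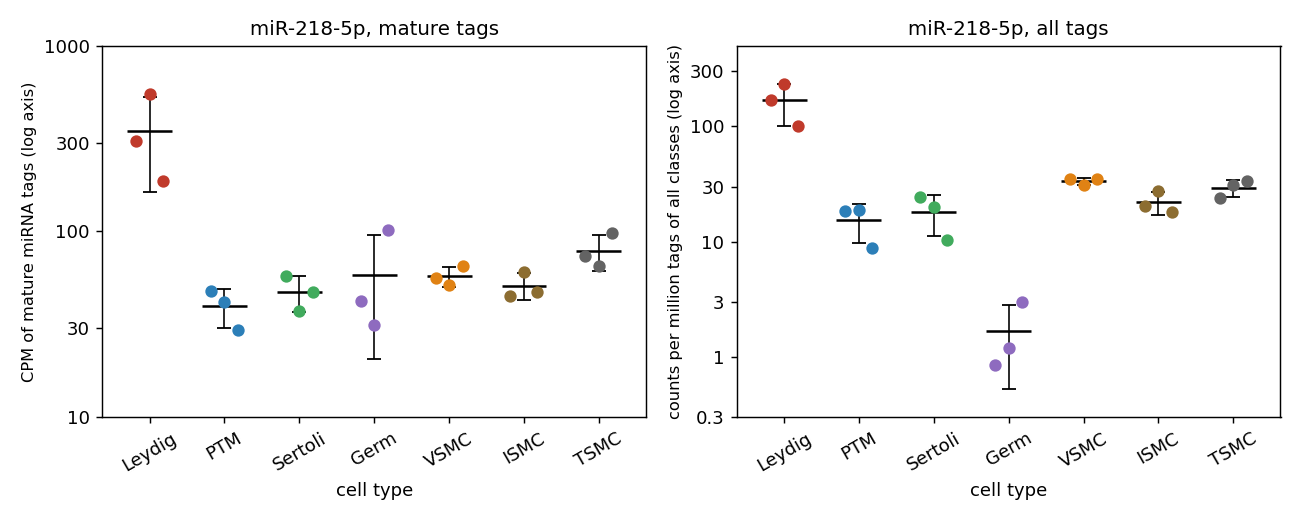
Levels of miR-218-5p by cell type, in CPM of mature miRNA tags (left) and in counts scaled to 1000000 tags of all classes (right), both on a log axis. Points are libraries, lines the mean of 3 and bars the SD. Leydig cells are highest on both scales (348 CPM and 168 all-tag CPM), and germ cells are last on the right only (1.68 all-tag CPM).

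miR-218-1-3p, the 3p arm of the Slit2 copy, was also highest in Leydig cells. Its Leydig libraries held 35.0, 37.8 and 27.5 CPM (436, 362 and 342 counts, mean 33.4 ± 5.29 CPM, n = 3), and again all 3 were above each of the other 18. The Leydig libraries were closer together in this arm than in miR-218-5p, with the highest 1.37 times the lowest against 2.93 times. Tracheal cells followed with 10.9, 14.3 and 11.6 CPM (mean 12.3 ± 1.79 CPM). PTM libraries held 6.91, 8.70 and 18.4 CPM (mean 11.3 ± 6.20 CPM), the third PTM library alone being above the tracheal ones.

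Neighbours among the remaining types did not differ beyond their spread in miR-218-1-3p. Vascular cells held 6.93, 10.5 and 5.62 CPM, Sertoli cells 6.70, 3.27 and 10.6 CPM, and intestinal cells 6.96, 4.78 and 7.32 CPM. Germ cells, at 6.21 ± 4.76 CPM, had only 2, 3 and 9 counts. The mean of Leydig cells was 2.72 times that of tracheal cells, 2.95 times that of PTM cells and 5.26 times that of intestinal cells. By all-tag CPM germ cells were lowest, at 0.180 against 2.31 in Sertoli cells, and the first and second places did not change.

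miR-218-2-3p, the 3p arm of the Slit3 copy, was scarcer and had another order. Leydig libraries held 6.99, 5.32 and 4.51 CPM (87, 51 and 56 counts, mean 5.61 ± 1.26 CPM, n = 3). Sertoli cells were second, at 2.34, 6.27 and 2.23 CPM (21, 71 and 9 counts, mean 3.61 ± 2.30 CPM), and their second library reached into the Leydig range. Germ cells, with 3, 2 and 1 counts (3.03 ± 2.36 CPM), could not be placed at this depth. PTM cells had 2.22, 1.16 and 3.23 CPM (18, 10 and 20 counts), all below Leydig cells.

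By CPM of mature tags the smooth muscle types held least of the Slit3 arm. Vascular cells had 0.960, 1.88 and 1.32 CPM (14, 26 and 15 counts) and intestinal cells 1.33, 0.222 and 1.55 CPM (13, 2 and 11 counts). Tracheal cells were lowest on this scale, with 2, 3 and 0 counts (mean 0.222 ± 0.192 CPM), although they were second to Leydig cells in miR-218-5p and miR-218-1-3p. Intestinal and tracheal ranges overlapped through the second intestinal library. In this arm Leydig cells overlapped with Sertoli and germ cells and lay above all libraries of the other 4 types. By all-tag CPM the order changed: vascular cells (0.811) stood beside PTM cells (0.785), and germ cells (0.0778) were last, next to tracheal cells (0.0885). The germ cell libraries, at most 0.116, then lay below the lowest Leydig library (2.27), while Sertoli cells still overlapped with Leydig cells. The share of all miRNAs with germ cells so placed on this scale was not counted.

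**Figure D2:**
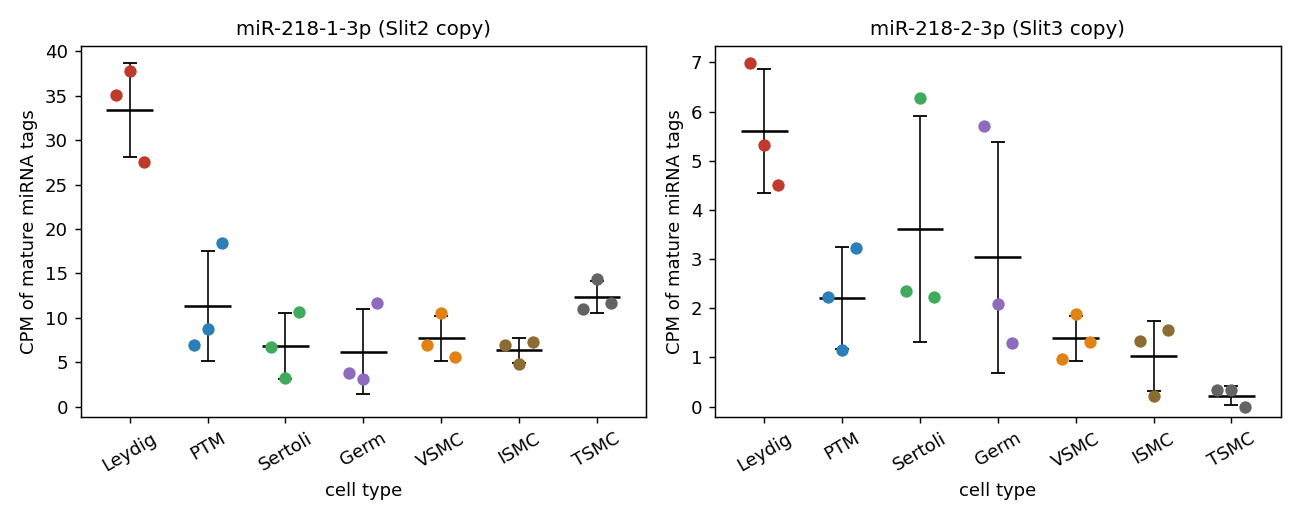
Levels of the 3p arms by cell type in CPM of mature miRNA tags, miR-218-1-3p from the Slit2 copy (left) and miR-218-2-3p from the Slit3 copy (right), on linear axes of different height. Points are libraries, lines the mean of 3 and bars the SD. Tracheal cells are second in the left panel (12.3 CPM) and last in the right one (0.222 CPM of mature tags).

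To compare the genes within a library, the share of miR-218-1-3p in the counts of both 3p arms was taken. Both arms are members chosen by measured levels over the cell types, so this share is not independent of that choice. The Slit2 arm had a share of 74.1% or more in 18 of the 21 libraries, among them germ cell library 3 on only 10 counts. It was the minor arm only in Sertoli library 2 (34.3%) and germ cell library 1 (40% of 5 counts). In Leydig cells it took 83.4%, 87.7% and 85.9% (mean 85.6 ± 2.16%, n = 3), summed 1140 of 1334 counts (85.5%, exact Clopper-Pearson 95% interval 83.5% to 87.3%; such intervals cover counting error only). PTM cells had 75.7%, 88.2% and 85.1%, vascular cells 87.8%, 84.9% and 81.0%, and intestinal cells 84.0%, 95.6% and 82.5%. All 3 types overlapped with Leydig cells.

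The tracheal libraries lay above the Leydig ones in this share, and 1 Sertoli library lay far below. In tracheal cells miR-218-1-3p made up 97.1%, 97.7% and 100% of the 3p counts, 267 of 272 in sum (98.2%, exact interval 95.8% to 99.4%). The third tracheal library had 0 of 72 counts from the Slit3 arm, which allows a share of up to 4.17%. Sertoli libraries held 74.1%, 34.3% and 82.7%. In the second of these the Slit3 arm prevailed, with 71 counts against 37 (exact interval of the Slit2 share 25.4% to 44.0%), and its interval lay apart from those of the other Sertoli libraries. Germ cell shares of 40%, 60% and 90% rested on 5, 5 and 10 counts and were not tested.

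Between pooled types, the Slit2 share was 90.1 ± 7.45% in the 9 smooth muscle libraries and 73.3 ± 19.9% in the 6 PTM and Sertoli libraries, a difference of 16.7 percentage points (two-sided p = 0.012 by exact permutation of 5005 splits; p = 0.037 after Benjamini-Hochberg adjustment for the 6 tests of this kind). The call was close to the threshold: it ended in 11 of the 15 fits that left out 1 library. It held without PTM library 2, VSMC library 2, ISMC library 1 or ISMC library 3. Over the 15 fits the adjusted p ranged from 0.036 to 0.15 (exact permutation). The call could also end where the difference grew, as without PTM library 3 (19.1 points, exact permutation, adjusted p = 0.057). Without Sertoli library 2 the difference was 8.91 points (adjusted p = 0.15). Leydig cells did not pass against the smooth muscle libraries (difference −4.41 points, exact permutation of 220 splits, p = 0.40, adjusted p = 0.40) or against PTM and Sertoli cells (12.3 points, exact permutation of 84 splits, p = 0.39, adjusted p = 0.40). These tests shuffle single libraries and treat pooled types as interchangeable, and the smallest p they allow is 2.0e-04, 0.0045 and 0.012. Mean shares varied within a pool, from 84.6% in vascular to 98.3% in tracheal cells, and from 63.7% in Sertoli to 83.0% in PTM cells. The p-values therefore measure the spread between libraries and not between types. They also come from counts of the chosen members, so they are not independent of that choice.

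The second within-library measure was the share of both 3p arms in all miR-218 counts. The 5p arm prevailed in every library. Leydig cells gave 12.1%, 7.27% and 14.6% to the 3p arms (mean 11.3 ± 3.72%, n = 3), and the smooth muscle types had means of 13.8 ± 5.11% (vascular), 13.0 ± 4.65% (intestinal) and 14.1 ± 3.98% (tracheal). Sertoli cells held 13.6%, 20.5% and 21.5%. PTM cells held 16.1%, 19.2% and 42.5%. The third PTM library stood apart with 134 of 315 counts from the 3p arms (exact 95% interval 37.0% to 48.2%), as it had both the lowest miR-218-5p level and the highest miR-218-1-3p level of its type.

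The 3p share differed by −8.57 percentage points between smooth muscle cells (13.7 ± 4.02%, n = 9) and PTM and Sertoli cells (22.2 ± 10.4%, n = 6; exact permutation, two-sided p = 0.012, adjusted p = 0.037). This call too ended in 11 of 15 fits without 1 library, and it held without Sertoli library 1, VSMC library 2, ISMC library 1 or ISMC library 3. Over the 15 fits the adjusted p ranged from 0.024 to 0.13 (exact permutation). Without PTM library 3 the difference was −4.51 points (adjusted p = 0.11, exact permutation). Leydig cells differed from PTM and Sertoli cells by −10.9 points and from smooth muscle cells by −2.35 points. Both are given as a description with no p, because miR-218-5p, whose Leydig level chose the members, makes up most of the denominator. Both were still among the 6 tests of the adjustment. The smooth muscle contrast also uses counts of the chosen members, so its p is not independent of that choice. Its permutation again shuffled single libraries of pooled types. Without PTM library 3 the first of these was −6.87 points.

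**Figure D3:**
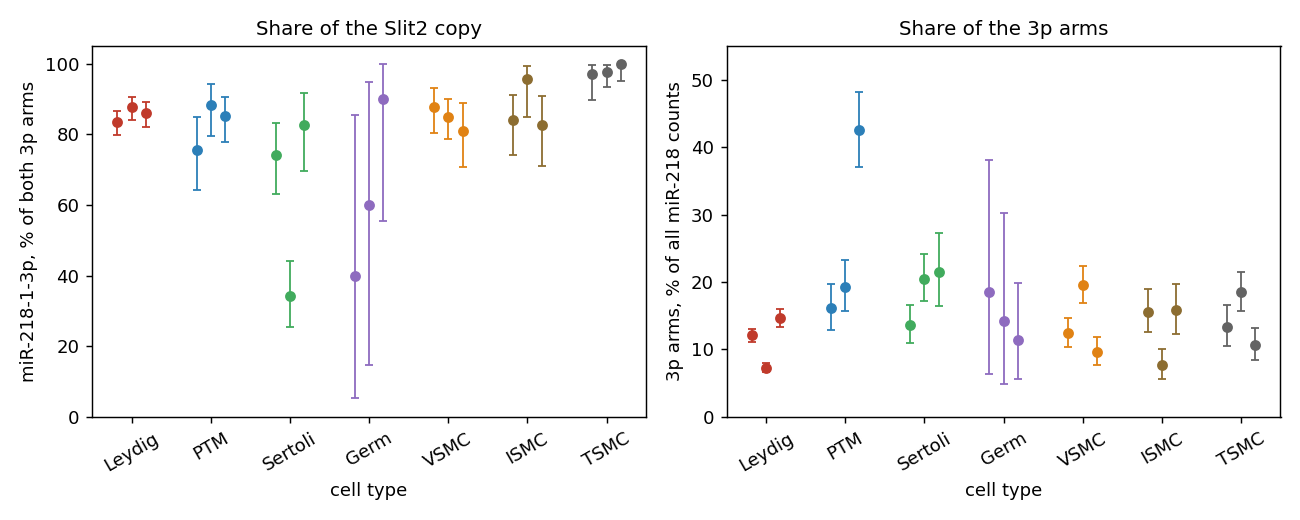
Share of miR-218-1-3p in the counts of both 3p arms (left) and of both 3p arms in all miR-218 counts (right), in percent, by library. Bars are exact 95% binomial intervals. The second Sertoli library is low on the left (34.3%), the tracheal libraries are near 100%, and the third PTM library is high on the right (42.5%).

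Across libraries, miR-218-1-3p was the 5th of the other tested miRNAs in likeness to miR-218-5p by mature CPM, with a Spearman correlation of 0.58 over the 21 libraries, whereas miR-218-2-3p was the 562nd (−0.15). By all-tag CPM the correlations over the same 21 libraries were 0.77 and 0.46. Without the Leydig libraries the correlations by mature CPM were 0.33 and −0.69 over 18 libraries, and by all-tag CPM they were 0.63 and 0.19. Without the germ cell libraries as well, over 15 libraries, they were 0.057 and −0.72 by mature CPM and 0.36 and −0.16 by all-tag CPM. The size thus depended on the scale and on the Leydig and germ cell libraries. By mature CPM the value of miR-218-2-3p moved mostly with the Leydig libraries (−0.15 to −0.69). Its sign depended on the scale and, by all-tag CPM, on the germ cell libraries. The points share libraries and depth, so these values are descriptions without p.

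**Figure D4:**
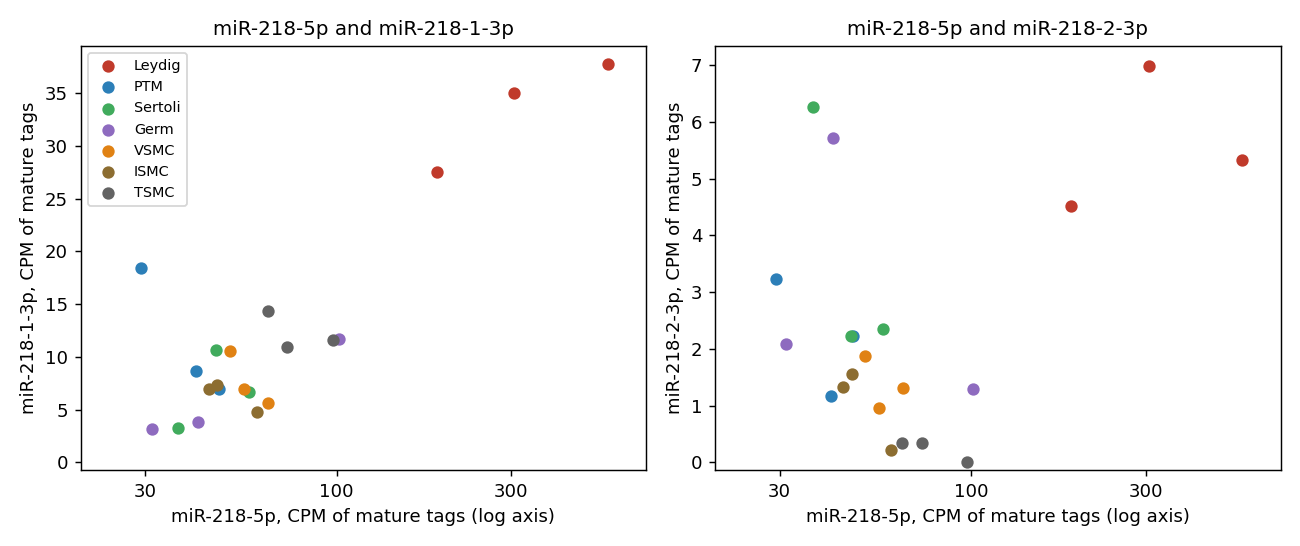
miR-218-5p (log axis) against miR-218-1-3p (left) and miR-218-2-3p (right) in CPM of mature miRNA tags, 1 point per library, coloured by cell type. The Leydig libraries stand apart on both sides, and among the others the tracheal libraries lie low on the right (0 to 0.333 CPM).

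In a fit of all mature miRNAs over the 21 libraries, after trimmed-mean (TMM) scaling, the members were set beside the rest of the table as a description. Leydig cells against the mean of PTM, Sertoli and germ cells gave log2 differences of 3.37 ± 0.38 for miR-218-5p, 2.72 ± 0.38 for miR-218-1-3p and 1.63 ± 0.50 for miR-218-2-3p (standard error of the fit), with a median of 0.77 over the 846 miRNAs. Leydig cells against the mean of the smooth muscle types gave 3.06 ± 0.38, 2.59 ± 0.37 and 3.60 ± 0.49 (median of all 0.09). Smooth muscle cells against the same testicular types gave 0.31 ± 0.30 and 0.13 ± 0.31 for the first pair and −1.97 ± 0.46 for miR-218-2-3p (median of all 0.32). The 3 contrasts share libraries. The median of all miRNAs moved with the scaling, to 0.15 and −0.33 in the contrasts of Leydig cells with size factors by the relative log expression (RLE) method and to 1.64 and −0.32 with tags of all classes, and the values of the members moved with it. For smooth muscle cells against the testicular types the median was 1.72 with tags of all classes, and the members were at 1.84, 1.69 and −0.55 (miR-218-5p, miR-218-1-3p and miR-218-2-3p). Without germ cells in the average miR-218-1-3p was at −0.34 in this contrast, so its direction was not settled.

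Leaving out the members, the miRNAs most like miR-218-5p by rank over the 21 libraries were miR-1943-3p and miR-376b-5p (Spearman 0.61 each), miR-100-5p (0.60), the joint entry of miR-199a-3p and miR-199b-3p (0.59), miR-100-3p, miR-26a-2-3p and miR-299b-3p (0.56 each) and miR-5123 (0.55). The median over 843 miRNAs was 0.01. By Pearson correlation of the log2 means of the 7 types, the closest were miR-216a-5p (0.93), miR-1247-3p (0.92), miR-1247-5p (0.90), miR-6972-3p (0.89), miR-199b-5p (0.85), miR-673-5p (0.79), miR-216a-3p (0.78) and miR-1839-5p (0.74). None of these non-members was in both groups of 8, whereas miR-218-1-3p was the 5th by either measure (Pearson 0.88). miR-218-2-3p was the 62nd by Pearson correlation (0.43). miR-1247-5p, from a gene next to Dio3, had 871 ± 240 CPM in Leydig cells and 1.30 to 11.3 CPM in the other types. miR-216a-5p reached only 3.17 ± 1.90 CPM in Leydig cells.

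Markers of other cells were summed in the Leydig libraries, where miR-218 was high, and in the other types. The 2 endothelial entries of miR-126 summed to 96.7 to 331 CPM in Leydig cells, and to 145 to 3875 CPM elsewhere. The 5 haematopoietic miRNAs summed to 78.3 to 165 CPM in Leydig cells, with miR-142a-5p at 0, against 36.8 to 920 CPM elsewhere. The 7 epithelial miRNAs summed to 33.6 to 40.6 CPM, above the smooth muscle types (5.80 to 17.7 CPM) and below the other testicular types (127 to 1010 CPM). The 5 striated muscle miRNAs summed to 15.4 to 86.2 CPM, with miR-133b-3p at 0, below every other type (242 to 1079 CPM). None of these lists was highest in Leydig cells. Their part in the miR-218 levels was not tested.

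3 lists of related miRNAs were counted beside miR-218 in the same contrasts (quasi-likelihood test in edgeR, p adjusted by Benjamini-Hochberg). Leydig cells against the mean of the other testicular types gave calls for 46.3% of the 846 miRNAs, 271 higher (32.0%) and 121 lower (14.3%). Of these calls 69.1% were higher after TMM scaling, 49.6% after RLE scaling and 88.4% with tags of all classes, and without germ cells in the average 238 calls were left of 392. Of the miRNAs reported, like miR-218, to repress the bone regulator Runx2, 8 of 10 were tested, of which 2 were higher, 4 lower and 2 not past (median −1.98). Among them miR-204-5p (−5.75 ± 0.61, adjusted p = 1.3e-07) and miR-133a-3p (−6.26 ± 0.78, adjusted p = 1.0e-06) were lower and miR-23a-3p (1.60 ± 0.35, adjusted p = 7.4e-04) was higher. Without germ cells the value of miR-23a-3p was 0.50 and not past the threshold. Of 7 tested neuronal miRNAs 0 were higher, 3 lower and 4 not past (median −1.28), with miR-124-3p at 1.54 ± 1.57 CPM in Leydig and 1291 ± 460 CPM in germ cells. Without germ cells miR-124-3p was not past the threshold (−0.49). Of 20 tested miRNAs that lie, like miR-218, in introns of protein-coding genes, 4 were higher, 4 lower and 12 not past (median −0.30), with miR-26a-5p at 1.72 ± 0.28 (adjusted p = 3.5e-05).

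Against the smooth muscle types, Leydig cells gave calls for 42.6% of the miRNAs by the same test, 234 higher (27.7%) and 126 lower (14.9%), and higher calls were 65% of them after TMM scaling and 46.7% after RLE scaling. The Runx2 list had 2 higher, 1 lower and 5 not past (median 0.23), the neuronal list 0 higher, 3 lower and 4 not past (median −1.77), and the intronic list 8 higher, 4 lower and 8 not past (median 0.55). Examples were miR-30c-5p (2.09 ± 0.48, adjusted p = 0.0011), miR-9-5p (−2.34 ± 0.44, adjusted p = 1.6e-04), miR-26a-5p (2.26 ± 0.28, adjusted p = 1.2e-06) and miR-149-5p (−3.22 ± 0.40, adjusted p = 1.2e-06). For smooth muscle cells against PTM, Sertoli and germ cells, 64.2% were called, 300 higher (35.5%) and 243 lower (28.7%). Of these calls 55.2% were higher after TMM scaling, 81.8% with tags of all classes and 42.3% without germ cells in the average. There the Runx2 list had 1 higher, 5 lower and 2 not past (median −2.37), the neuronal list 2, 3 and 2 (median 0.47), and the intronic list 3, 10 and 7 (median −0.58). miR-149-5p (2.91 ± 0.24, adjusted p = 5.9e-10) was the higher intronic example and miR-93-5p (−2.15 ± 0.21, adjusted p = 1.0e-08) the lower one.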

How the data were processed

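The deposited table holds tag counts and TPM values of small RNA entries, both made by the authors. Per the labels' protocols total RNA was taken with TRNzol and libraries followed a BGI protocol. Bowtie2 and the mm10 build are named in the submitters' processing notes. Versions, adapter handling, mismatches and the treatment of tags with several matches are not stated in those notes. Counts were used as deposited. The deposited TPM values are counts scaled to the tags of all classes with 0 written as 0.001, and were not used in tests.

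CPM are counts scaled to the mature tags alone. The 846 mature miRNAs that reached 10 counts in 3 or more libraries were fitted in edgeR 4.0.16 (R 4.3.3) in 1 model of the 21 libraries, with TMM and its quasi-likelihood test (robust option) (14 residual degrees of freedom, dispersion 0.2995). Calls had a Benjamini-Hochberg adjusted p under 0.05. The model and the permutation routine were tested on simulated data. Shares were tested over libraries with at least 10 counts of both 3p arms or 100 of all miR-218, by exact permutation. Alternatives were RLE and total scaling, tags of all classes, no count filter, DESeq2 1.42.0, a replicate block, mature totals without the 10 most abundant miRNAs, germ cells left out and each library left out. The members, lists and tests were chosen with earlier results of these data known. Likeness was ranked on log2(CPM + 1), taking the 8 highest by each measure, and of each list the called members were named, up to the 4 most abundant, from which a few are given. No pair of libraries of a type agreed within sampling noise.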

Additional observations from a re-analysis of the deposited data

Results flagged for a closer look

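An entry of the table outside the mature class, the Rfam precursor family of mir-218, was not part of the comparisons. Its highest count was 5 in a Leydig library and 5 in a Sertoli library, above the floor of 3 counts used here as the limit that an observed count of 0 allows. Leydig libraries held 5, 1 and 2 counts of it, Sertoli libraries 2, 5 and 2, vascular libraries 2, 2 and 0, and the other 12 libraries 0. These counts are too few to order the types.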

How the results depend on the processing

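The log2 ratio of the Leydig mean of miR-218-5p to that of each other type stayed above 0 in the alternatives run and kept within the spread of the libraries, except against germ cells with tags of all classes as the total (6.65, against 2.58 with mature tags). Calls between Leydig and the other testicular types fell from 392 to 238 without germ cells in the average. With 1 library left out the counts of calls were 305 to 403, 509 to 546 and 286 to 395 in the 3 contrasts. With the replicate number as a block they were 377, 529 and 349, against 392, 543 and 360. Over all types the numbers showed no pairing of the libraries. Deviations of same-numbered libraries of different types correlated at a mean of 0.0017 (11 of 63 pairs over 0.1). For other numbers the mean was −0.00099 (28 of 126 pairs over 0.1). Pairs among the testicular types were not examined apart, so pairing within them is not excluded. The shares of the smooth muscle contrast ranged from 8.91 to 19.7 points (Slit2 share) and from −10.3 to −4.51 points (3p share) with 1 library left out, and the 3p share gave −8.72 points (adjusted p = 0.070, exact permutation) at a minimum of 300 counts. Over 33 results of listed miRNAs, each a miRNA in 1 contrast, 6 values turned sign: miR-34c-5p to 1.31 and 0.34 and miR-9-5p to 0.90 without germ cells, and miR-103-3p, miR-128-3p and miR-26a-5p to 0.051, 0.041 and 0.97 with tags of all classes (smooth muscle against testicular types). The cause was not tested. Depth limits most the germ cell libraries and the Slit3 arm.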
